A study of Mus musculus with 6 samples.

Results

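The 8 genes described here, Drd1, Drd2, Adora2a, Gpr6, Ppp1r1b, Rgs9, Rarb and Syndig1l, are markers of striatal medium spiny neurons, and they were taken by symbol from the 23282 rows of each count file, where each has 1 row. Their transcripts were counted in tissue labelled hippocampus from C57BL/6 mice aged 16 weeks. The study compared 3 libraries labelled PHF2 t/g with 3 labelled WT, by 3′ end sequencing that reads about 1 tag per transcript, so that levels can be set beside each other between genes without a correction for length. PHF2 is a histone demethylase, and t/g is taken to mean a transgene of it; the labels state neither its promoter nor the cells that carry it. The labels name separate samples but not separate animals, so each p-value reflects only how these libraries vary, which may be technical.

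Medium spiny neurons are the inhibitory output neurons of the striatum and form a pair of pathways. Neurons of the direct pathway carry the dopamine D1 receptor, which raises cyclic AMP, and make the peptides of Tac1 and Pdyn. Neurons of the indirect pathway carry the dopamine D2 receptor, which lowers cyclic AMP, together with the adenosine receptor encoded by Adora2a and the peptide precursor Penk. Several of these genes are also transcribed outside the striatum, Drd1 in some neurons of cortex and hippocampus among them.

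In the PHF2 t/g libraries Rgs9, a regulator of G protein signalling, was 1.43-fold higher than in WT and was the only member past the threshold. Drd1 and Ppp1r1b lay above WT in all 3 libraries, by 1.30-fold and 1.22-fold, but did not pass. Of all tested genes 10.1% lay above WT in this way. Adora2a was 1.26-fold lower and did not pass, and Rarb and Syndig1l did not pass either. Drd2 and Gpr6, which define the indirect pathway together with Adora2a, had at most 3 counts in any library. All levels come from bulk tissue, where fewer cells of a type and less RNA per cell cannot be told apart.

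The libraries held 6053363 to 8612720 counts in PHF2 t/g, against 5512171 to 8844718 in WT, and the low-count filter kept 12831 genes, 6 of the 8 members among them. In edgeR's quasi-likelihood fit, with p-values adjusted by Benjamini-Hochberg over these genes, 2.27% of all tested genes passed a threshold of 0.05, 0.779% higher and 1.49% lower in PHF2 t/g. With library size alone in place of TMM scaling the split turned round, to 207 higher and 70 lower against 100 and 191 with TMM, and the median over all genes moved to 0.12 from 0.02 on the log2 scale. Phf2 itself stood at 38.7 ± 3.96 CPM in PHF2 t/g, against 37.7 ± 1.92 CPM in WT (SD, n = 3), which does not check the labels, since these tags would miss a transgene with another 3′ end. WT replicate 2 differed most from the other libraries of its group, with a chi-square of 8.98 and 9.22 per gene against 3.50 between the other WT pair, and PHF2 t/g replicate 1 held 292 CPM of the choroid plexus transcript Ttr, against 1.29 to 4.46 CPM in the other 5.

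**Figure D1:**
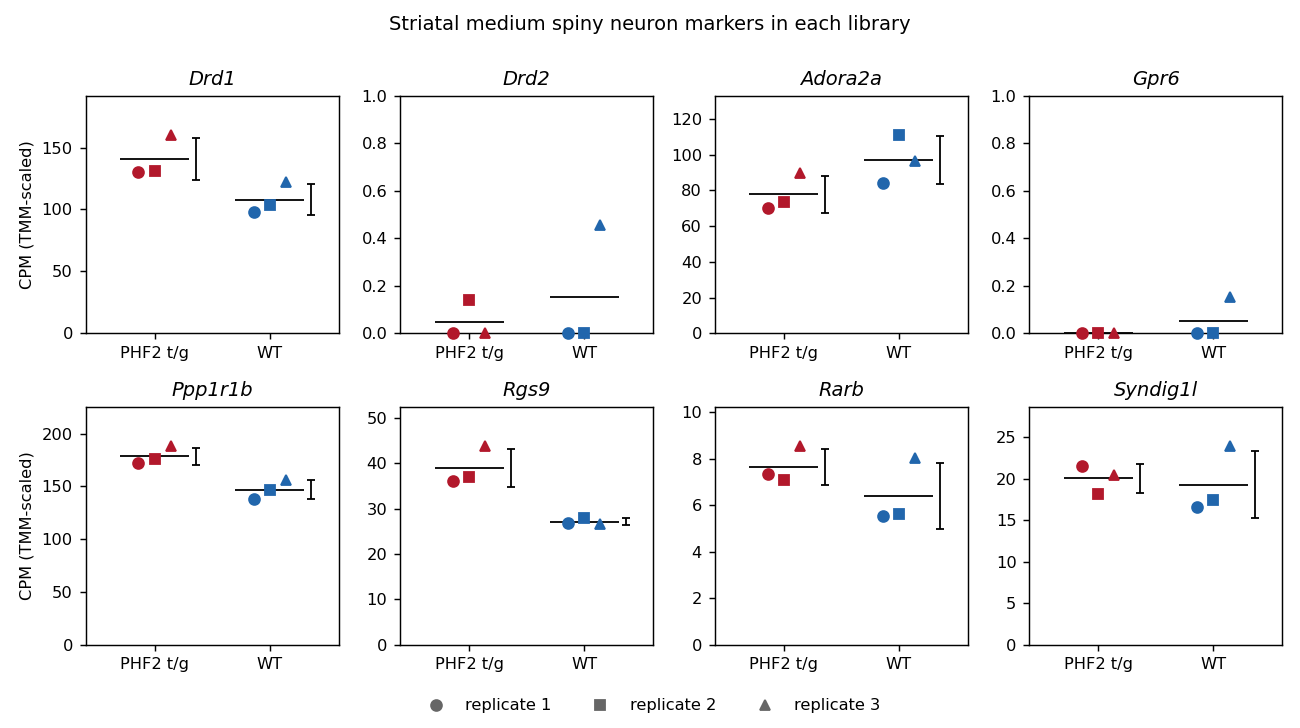
Level of each of the 8 markers in each library, in CPM scaled by TMM, with PHF2 t/g on the left and WT on the right of every panel. Points are libraries, horizontal lines are means and bars are SD over 3 libraries, drawn where every library has a count. Rgs9, Drd1 and Ppp1r1b do not overlap between groups, nor do 20.6% of all tested genes. Drd2 and Gpr6 stay below 0.5 CPM.

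The dopamine and adenosine receptors come first in this signalling chain. Drd1 (chromosome 13, 54051183 to 54055658, GRCm38) stood at 130, 131 and 160 CPM, the count scaled to the TMM-adjusted library total, in PHF2 t/g replicates 1 to 3, and at 97.8, 103 and 122 CPM in WT replicates 1 to 3. Every PHF2 t/g library was above every WT library, and replicate 3 was the highest of its group on both sides. The groups averaged 140 ± 16.8 CPM in PHF2 t/g, against 108 ± 12.6 CPM in WT (SD, n = 3), a log2 fold change of 0.38 (95% interval 0.17 to 0.59; edgeR adjusted p = 0.0604). The call turned on the processing: Drd1 passed with DESeq2 (adjusted p = 0.0484), with library size alone (edgeR adjusted p = 0.0235), without the low-count filter (edgeR adjusted p = 0.00414) and without WT replicate 3 (edgeR adjusted p = 0.0378).

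Drd2 (chromosome 9, 49340360 to 49408177), the receptor that defines the indirect pathway, had 0, 1 and 0 counts in the PHF2 t/g libraries and 0, 0 and 3 counts in the WT libraries. It failed the low-count filter, and with 1 count over PHF2 t/g and 3 over WT no fold was formed. A library with 0 counts allows up to 3 counts, which is 0.333 to 0.483 CPM in PHF2 t/g, against 0.352 to 0.571 CPM in WT. These tags count transcripts only where the 3′ end lies in the annotated gene, so a transcript that ends elsewhere would be missed.

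Gpr6 (chromosome 10, 41069977 to 41072290), a constitutively active receptor of indirect-pathway neurons that raises cyclic AMP, had 0 counts in all 3 PHF2 t/g libraries and 0, 0 and 1 counts in WT. It was the member closest to absence in both groups, and no fold was formed. The 250 bases upstream of its RefSeq start are shown because they hold, in capitals, the palindrome TGACGTCA of a cyclic AMP response element, searched on both strands, 78 bases before the start (chr10:41072291-41072540, minus strand, RefSeq on GRCm38.p6).
Gpr6: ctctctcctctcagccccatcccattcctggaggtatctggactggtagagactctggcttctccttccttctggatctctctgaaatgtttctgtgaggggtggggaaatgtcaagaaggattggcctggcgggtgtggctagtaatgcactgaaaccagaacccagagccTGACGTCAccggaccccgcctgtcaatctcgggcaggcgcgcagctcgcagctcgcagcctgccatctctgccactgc
This motif occurs in 1.55% of 32851 RefSeq promoter entries over the same length, and none of the upstream windows of Drd1, Drd2, Rgs9 or Rarb holds it. The match is a description of the letters and not of a bound site.

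Adora2a (chromosome 10, 75316877 to 75334792), which encodes the adenosine receptor that raises cyclic AMP in indirect-pathway neurons, was unlike the other indirect-pathway receptors in being well counted. It stood at 70.1, 73.4 and 89.8 CPM in PHF2 t/g, against 83.9, 111 and 96.5 CPM in WT. The groups overlapped, since PHF2 t/g replicate 3 was above WT replicate 1, and WT replicate 2 was the highest library. The means were 77.8 ± 10.6 CPM in PHF2 t/g, against 97.1 ± 13.5 CPM in WT (SD, n = 3), a log2 fold change of −0.33 (95% interval −0.57 to −0.08; edgeR adjusted p = 0.169). Without WT replicate 2 the log2 fold change was −0.22, and with PHF2 t/g replicate 1 left out as well it was −0.15 (edgeR adjusted p = 0.661). It passed only without the low-count filter (edgeR adjusted p = 0.032) among the alternatives run.

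The 3 PHF2 t/g libraries together held 1706 Adora2a counts and 1 Drd2 count, and the 3 WT libraries held 2023 and 3. Gpr52, another receptor of the indirect pathway, had at most 2 counts in any library. The Drd3 row held 0 counts in all 6 libraries.

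Inside the cell, Ppp1r1b (chromosome 11, 98348406 to 98357796) encodes DARPP-32, which inhibits protein phosphatase 1 once protein kinase A has phosphorylated it. It was the most abundant member, at 172, 176 and 188 CPM in PHF2 t/g, against 138, 146 and 156 CPM in WT. The groups did not overlap, and the spread within each was narrow. The means were 178 ± 8.28 CPM in PHF2 t/g, against 147 ± 9.12 CPM in WT (SD, n = 3), with a log2 fold change of 0.28 (95% interval 0.11 to 0.45; edgeR adjusted p = 0.0796). With library size alone it passed (log2 fold change 0.38; edgeR adjusted p = 0.02). An antisense transcript that covers its 3′ end, 1700003D09Rik, had 1 to 8 counts in PHF2 t/g, against 1 to 9 in WT.

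Rgs9 (chromosome 11, 109225348 to 109298181) encodes RGS9, which with the G protein subunit Gβ5 speeds the shut-off of G proteins activated by receptors such as D2. It stood at 36.2, 37.1 and 43.8 CPM in PHF2 t/g, against 26.8, 28.0 and 26.6 CPM in WT. Every PHF2 t/g library was above every WT library, and the WT libraries were close together. The means were 39.0 ± 4.14 CPM in PHF2 t/g, against 27.1 ± 0.717 CPM in WT (SD, n = 3), a log2 fold change of 0.52 (95% interval 0.27 to 0.76; edgeR adjusted p = 0.0248). Its fold change stayed between 0.41 and 0.62 on the log2 scale over 17 alternatives, and the call held without WT replicate 2 alone or together with PHF2 t/g replicate 1 (edgeR adjusted p = 0.0105 and 0.0397). It ended without any 1 library other than WT replicate 2 (edgeR adjusted p = 0.0551 to 0.144), with limma-voom (adjusted p = 0.055) and without the robust fit (edgeR adjusted p = 0.0529).

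The 250 bases upstream of the RefSeq start of Rgs9 are shown as those of the member that passed the test (chr11:109298182-109298431, minus strand, RefSeq on GRCm38.p6), with the TATAAA match in capitals.
Rgs9: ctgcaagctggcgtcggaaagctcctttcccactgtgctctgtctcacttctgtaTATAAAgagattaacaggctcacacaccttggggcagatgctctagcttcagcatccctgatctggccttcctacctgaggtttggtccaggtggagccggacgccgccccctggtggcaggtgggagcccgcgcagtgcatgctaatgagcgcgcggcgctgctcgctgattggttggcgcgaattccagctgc
This match begins 195 bases before the start, and TATAAA, searched on both strands, occurs in 12.4% of the promoter entries.

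Rarb (chromosome 14, 16430839 to 17082331), a retinoic acid receptor that takes part in the development of striatal neurons, stood at 7.33, 7.10 and 8.53 CPM in PHF2 t/g, against 5.52, 5.64 and 8.02 CPM in WT. WT replicate 3 stood with the PHF2 t/g libraries, so the groups overlapped. The log2 fold change was 0.25 (95% interval −0.20 to 0.71; edgeR adjusted p = 0.647). These counts are uncertain, because the 3′ end of Rarb lies within Top2b on the opposite strand, which had 946 to 1424 counts in PHF2 t/g, against 784 to 1326 in WT, against 50 to 66 and 29 to 53 for Rarb.

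Rarb is known as a target of its own ligand, through a response element made of a repeated short motif. The upstream window of the RefSeq start inside the gene is shown for that element (chr14:16575477-16575726, minus strand, RefSeq on GRCm38.p6), with the match in capitals: GTTCA, any 6 bases, then GTTCA again, searched on both strands.
Rarb: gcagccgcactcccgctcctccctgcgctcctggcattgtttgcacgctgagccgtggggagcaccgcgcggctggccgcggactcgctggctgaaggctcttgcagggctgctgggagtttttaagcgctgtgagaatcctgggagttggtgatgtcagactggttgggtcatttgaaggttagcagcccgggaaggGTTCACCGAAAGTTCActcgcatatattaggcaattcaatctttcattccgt
The match begins 52 bases before the start, and 22 of the 32851 promoter entries hold one. None of the windows of Drd1, Drd2, Gpr6 or Rgs9 does.

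Syndig1l (chromosome 12, 84677277 to 84698947), a relative of the synapse protein gene Syndig1, was the member with the smallest difference. It stood at 21.5, 18.2 and 20.4 CPM in PHF2 t/g, against 16.6, 17.4 and 23.9 CPM in WT. The WT libraries spread more widely than the PHF2 t/g libraries and enclosed them. The log2 fold change was 0.057 (95% interval −0.27 to 0.38; edgeR adjusted p = 0.908), and its sign turned without PHF2 t/g replicate 1, WT replicate 1 or WT replicate 2.

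**Figure D2:**
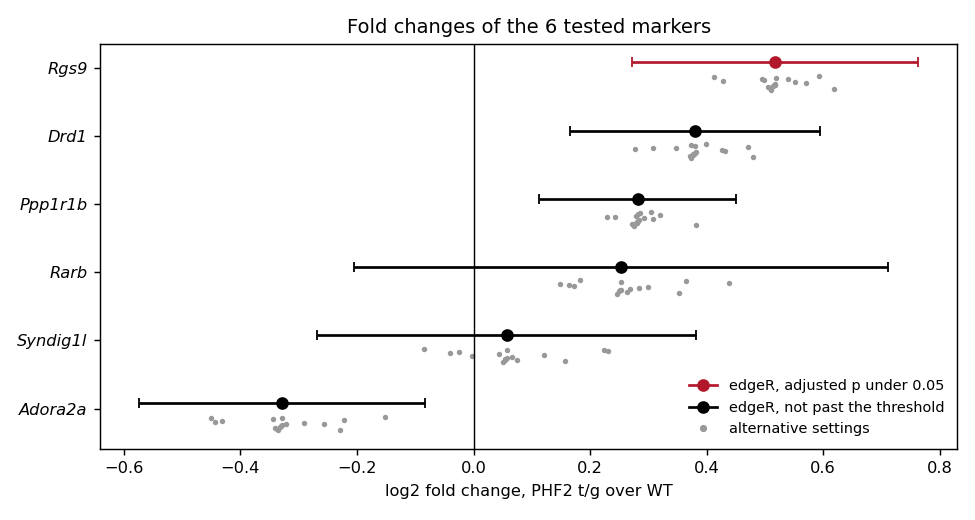
Log2 fold change (PHF2 t/g over WT) of the 6 members that passed the low-count filter, with 95% intervals from the edgeR fit; grey points below each are the same value under the alternative settings. Rgs9, in red, is past the threshold at 0.52, Drd1 and Ppp1r1b have intervals above 0, and Adora2a has an interval below 0.

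In all, 1 of 6 tested members rose and none fell by edgeR, where 0.779% of all tested genes rose and 1.49% fell. By unadjusted p under 0.05 there were 3 higher and 1 lower, and limma-voom called 0 in either direction. DESeq2 called 2 higher and 0 lower, against 50 higher and 220 lower of the 6234 genes to which it gave an adjusted p. Rarb and Syndig1l have no DESeq2 adjusted p, so it could not call them. Of all tested genes 14.7% had an unadjusted p under 0.05, 6.72% higher and 7.95% lower, against which the counts at that level in the gene lists can be read. The members whose libraries did not overlap between groups were 3 above and 0 below; of all tested genes 20.6% did not overlap, 10.1% above and 10.4% below. The median log2 fold change of the 6 was 0.27, beside 0.02 for all tested genes. By mean level in PHF2 t/g the members ran from Ppp1r1b and Drd1 through Adora2a, Rgs9, Syndig1l and Rarb to Drd2 and Gpr6, and the order in WT was the same. In WT Drd1 and Adora2a, neighbours in this order, were within 1 SD of each other, whereas in PHF2 t/g they were not.

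Ratios between members within a library do not depend on the scaling of libraries. The ratio of Drd1 to Adora2a counts was 1.86, 1.79 and 1.78 in PHF2 t/g, against 1.17, 0.932 and 1.26 in WT. The PHF2 t/g libraries were close together and all above WT. Rgs9 to Adora2a gave 0.517, 0.505 and 0.487 in PHF2 t/g, against 0.320, 0.252 and 0.276 in WT, and Ppp1r1b to Adora2a averaged 2.31 ± 0.194 in PHF2 t/g, against 1.52 ± 0.178 in WT (SD, n = 3). For each of these an exact permutation test, two-sided, gave p = 0.1 (0.15 when adjusted over 6 ratios), the smallest that 3 against 3 libraries allow.

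The ratio of Ppp1r1b to Drd1, by contrast, overlapped between groups, at 1.28 ± 0.0897 in PHF2 t/g, against 1.37 ± 0.0771 in WT (SD, n = 3; exact permutation p = 0.3). The ratio of Rgs9 to Drd1 was 0.278 ± 0.00442 in PHF2 t/g, against 0.254 ± 0.0313 in WT, with WT replicate 3 low (SD, n = 3; exact permutation p = 0.2). The ratios were chosen after the values were seen, so their separation is a description. None could pass a threshold of 0.05, since the smallest possible exact permutation p was 0.1.

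**Figure D3:**
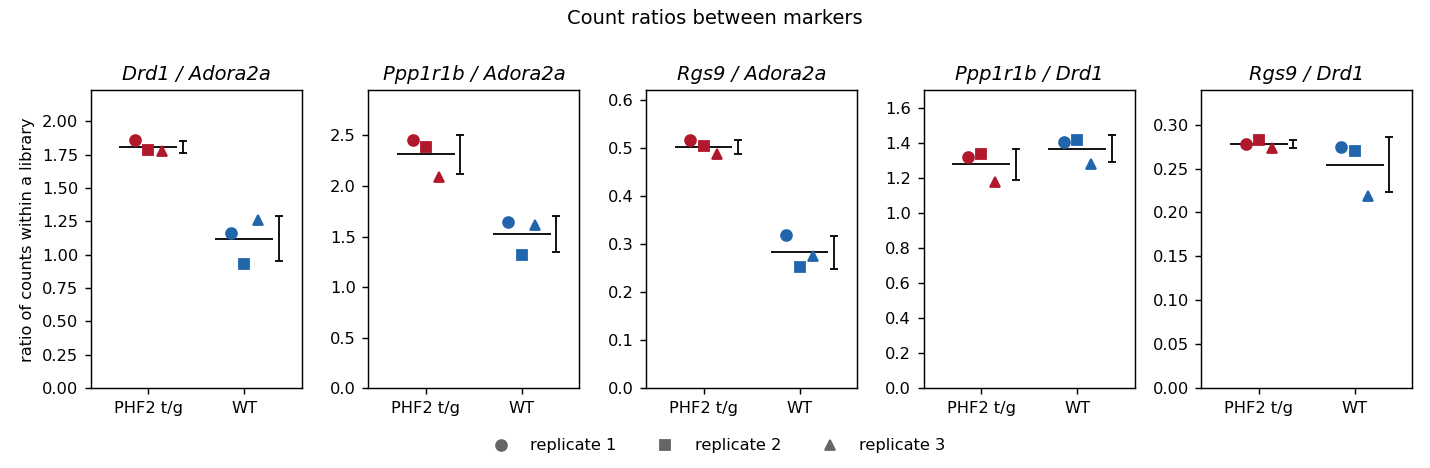
Ratio of the counts of 2 markers within each library, with PHF2 t/g left of WT, horizontal lines for means and bars for SD over 3 libraries. The 3 ratios over Adora2a are higher in every PHF2 t/g library than in any WT library, and the ratio of Ppp1r1b to Drd1 overlaps.

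The other genes of medium spiny neurons were described from a list of 34. Of these, 30 were tested, 5 rose, 1 fell and 24 did not pass by edgeR, with a median log2 fold change of 0.24 beside 0.02 for all genes; 26 lay above 0, as did 53.9% of all tested genes, of which 0.779% rose and 1.49% fell. The genes that rose were led by peptide precursors that in the striatum mark both pathways. Pdyn, the dynorphin precursor of the direct pathway, stood at 67.2, 54.8 and 55.0 CPM in PHF2 t/g, against 35.0, 30.7 and 33.1 CPM in WT, a rise of 1.80-fold (edgeR adjusted p = 4.06e-04). Tac1, the substance P precursor of the same pathway, rose 1.68-fold (edgeR adjusted p = 0.00121), and Penk, the enkephalin precursor of the indirect pathway, rose 1.65-fold (edgeR adjusted p = 0.00162).

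In the striatum Penk and Adora2a mark the same neurons, those with Drd2, but Drd2 had at most 3 counts in any library here. The cells that gave the Penk, Adora2a, Pdyn and Tac1 counts were not identified. The ratio of Penk to Adora2a counts was 3.26, 2.98 and 2.84 in PHF2 t/g, against 1.73, 1.07 and 1.68 in WT (exact permutation p = 0.1, 0.15 when adjusted over 6 ratios). Six3, a transcription factor needed for indirect-pathway neurons, rose 1.68-fold to 34.6 ± 2.08 CPM in PHF2 t/g, against 20.7 ± 3.52 CPM in WT (edgeR adjusted p = 0.00493). The leucine-rich repeat gene Lrrc10b rose 1.44-fold (edgeR adjusted p = 0.0105). Lrrc10b lost the call in 4 of 17 alternatives and Six3 in 2 of 17, with edgeR adjusted p up to 0.100 and 0.0984 when 1 library was left out. Foxp1, a transcription factor of striatal and also of cortical and hippocampal neurons, fell to 521 ± 13.8 CPM in PHF2 t/g, against 663 ± 17.3 CPM in WT (SD, n = 3; edgeR adjusted p = 0.0164), and it lost the call in 6 of 17 alternatives, among them library size alone (edgeR adjusted p = 0.0831) and leaving out each PHF2 t/g library in turn, or WT replicate 3 (edgeR adjusted p = 0.148, 0.0928, 0.0620 and 0.0506).

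Without PHF2 t/g replicate 1 the count on this list was 3 (Penk, Tac1 and Pdyn), and without WT replicate 2 it was 8. Among those that did not pass, Pde10a, the striatal phosphodiesterase, had 34.0 ± 1.99 CPM in PHF2 t/g, against 26.2 ± 5.09 CPM in WT. Chrm4, a muscarinic receptor of the direct pathway, lay the other way, at 6.56 ± 0.988 CPM in PHF2 t/g, against 8.57 ± 0.351 CPM in WT (edgeR adjusted p = 0.379). Foxp2 and Ptpn5 were 1.48-fold and 1.22-fold higher without passing (edgeR adjusted p = 0.0626 and 0.0904).

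**Figure D4:**
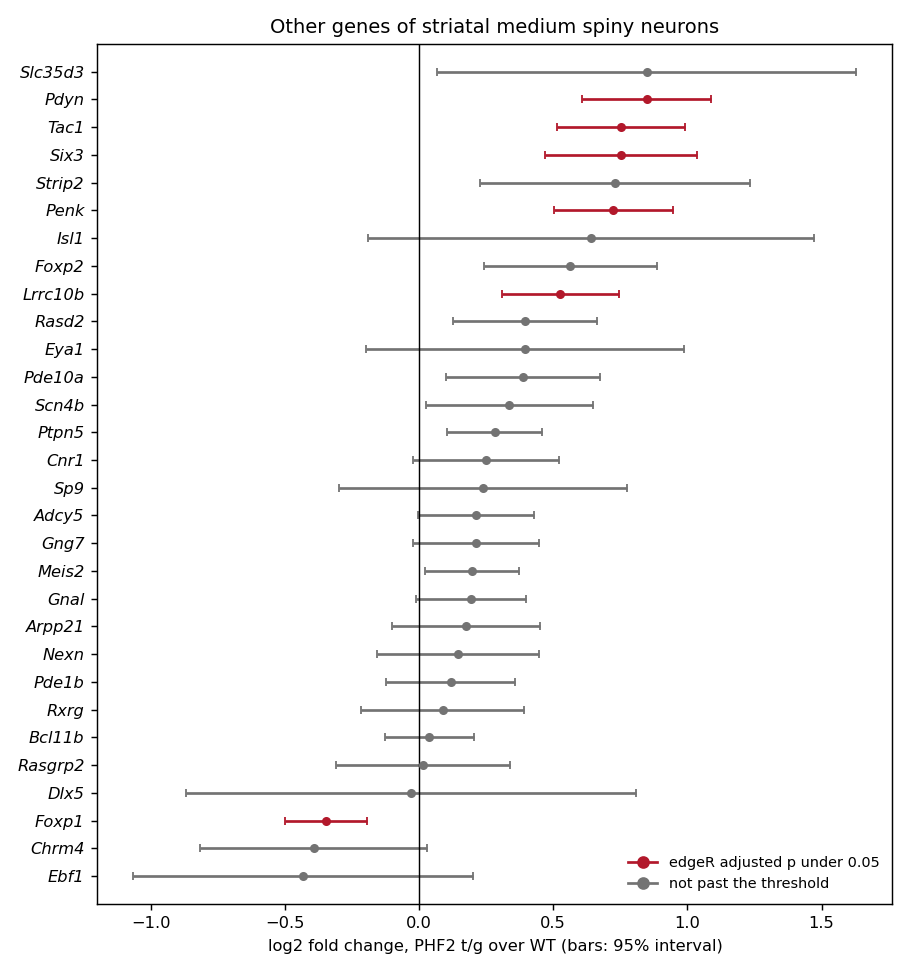
Log2 fold change (PHF2 t/g over WT) with 95% intervals for the 30 tested genes of the list of other medium spiny neuron genes, ordered by value. Pdyn, Tac1, Six3, Penk and Lrrc10b, in red, rose, Foxp1 fell, and 24 genes, in grey, did not pass.

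The pathway that links the receptors to Ppp1r1b was described next. Of all tested genes 2.27% passed by edgeR and 14.7% had an unadjusted p under 0.05. Of 24 tested genes of G proteins, adenylyl cyclase, protein kinase A, the kinases Cdk5, casein kinase 1 and casein kinase 2, phosphatases and phosphodiesterases, 5 of which are also on the striatal list, 0 rose and 1 fell by edgeR, as by DESeq2 and limma-voom, with 3 higher and 4 lower at an unadjusted p under 0.05 and a median log2 fold change of −0.033. The gene that fell was Cdk5r1, an activator of Cdk5, a kinase that phosphorylates DARPP-32 at a site which turns it into an inhibitor of protein kinase A. It stood at 899 ± 49.5 CPM in PHF2 t/g, against 1129 ± 66.8 CPM in WT (SD, n = 3; edgeR adjusted p = 0.0312), and it lost the call in 7 of 17 alternatives, among them library size alone (edgeR adjusted p = 0.121), the fit that was not robust (edgeR adjusted p = 0.0673) and leaving out each PHF2 t/g library in turn (edgeR adjusted p = 0.243, 0.166 and 0.0588). The striatal cyclase Adcy5 and its G protein subunits Gnal and Gng7 were 1.16-, 1.14- and 1.16-fold higher and did not pass (edgeR adjusted p = 0.350, 0.373 and 0.393).

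Of 16 other dopamine and adenosine genes, 11 were tested and none passed by edgeR or limma-voom, with 2 higher and 1 lower at an unadjusted p under 0.05; Adora1 was called lower by DESeq2 (adjusted p = 0.0309) and without the low-count filter (edgeR adjusted p = 0.0050), among other alternatives. Adora1, the A1 receptor that lowers cyclic AMP, stood at 551 ± 45.2 CPM in PHF2 t/g, against 690 ± 78.0 CPM in WT (SD, n = 3; edgeR adjusted p = 0.0662). Th, the enzyme that makes the precursor of dopamine, had 1.11 to 1.61 CPM in PHF2 t/g, against 0.381 to 0.940 CPM in WT, below the filter.

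Rgs11 had the smallest p among 7 tested R7 RGS relatives and partners of Rgs9 (edgeR adjusted p = 0.497) and has no DESeq2 adjusted p. None of the 7 had an unadjusted p under 0.05 or passed by edgeR, DESeq2 or limma-voom. The same held for the Gpr6 relatives Gpr3 and Gpr12 and for the Syndig1l relatives Syndig1 and Prrt2. Of 17 retinoid genes 10 were tested, 0 rose and 1 fell by edgeR, DESeq2 and limma-voom alike, with 1 higher and 1 lower at an unadjusted p under 0.05. Cyp26b1, which breaks down retinoic acid, fell to 35.0, 37.6 and 33.8 CPM in PHF2 t/g, against 54.4, 71.1 and 50.2 CPM in WT (edgeR adjusted p = 0.00417). All PHF2 t/g libraries were below all WT libraries, and leaving out PHF2 t/g replicate 1 ended the call (edgeR adjusted p = 0.0753).

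The labelled tissue was set against hippocampal markers, since striatal markers are the subject. Of 12 hippocampal genes 11 were tested, Wfs1 rose (50.3 ± 3.20 CPM in PHF2 t/g, 35.9 ± 1.38 CPM in WT; edgeR adjusted p = 0.0191) and none fell by edgeR, DESeq2 and limma-voom alike, with 2 higher and 0 lower at an unadjusted p under 0.05. The Wfs1 call was lost in 6 of 17 alternatives, among them leaving out each PHF2 t/g library in turn, or WT replicate 3 (edgeR adjusted p = 0.185, 0.0773, 0.0594 and 0.0682). The summed level of the list was 656 to 867 CPM in PHF2 t/g, against 739 to 885 CPM in WT, most of it Neurod2 and Neurod6, which cortex also expresses. The granule cell gene Prox1 had 1.77 to 6.25 CPM in PHF2 t/g, against 4.69 to 8.76 CPM in WT, below Drd1, Ppp1r1b, Adora2a, Rgs9 and Syndig1l in every library. Dsp had 0.322 to 2.84 CPM in PHF2 t/g, against 0 to 4.76 CPM in WT, and Cabp7 had 0 counts in all 6. Prox1, Dsp and Cabp7 were among the lower genes of this list, as were C1ql2 and Man1a. Zbtb20 stood near Syndig1l, at 18.7 to 27.7 CPM in PHF2 t/g, against 18.6 to 27.0 CPM in WT. Grik4 had 17.6 to 21.7 CPM in PHF2 t/g, against 17.4 to 29.1 CPM in WT. Fibcd1 had 7.88 to 21.2 CPM in PHF2 t/g, against 13.8 to 40.9 CPM in WT.

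Replicate 3 was the lowest library of both groups for 8 of the 11 tested hippocampal genes, and not for Wfs1, Grik4 and Man1a. Prox1, C1ql2, Dsp, Fibcd1 and Spink8, chosen among the 8 after their values were seen, summed to 43.6, 56.7 and 17.4 CPM in PHF2 t/g replicates 1 to 3 and 71.4, 55.9 and 22.5 CPM in WT replicates 1 to 3. The same libraries were the highest of their group for Drd1, Ppp1r1b and Rarb. For Rgs9, PHF2 t/g replicate 3 was the highest and WT replicate 3 the lowest of its group. Adora2a was highest in PHF2 t/g replicate 3 but in WT replicate 2, and Syndig1l in PHF2 t/g replicate 1 but in WT replicate 3. Without both replicate 3 libraries the log2 fold change of Rgs9 was 0.41 (edgeR adjusted p = 0.252), that of Drd1 0.37, of Ppp1r1b 0.29 and of Adora2a −0.45, with 0 members past the threshold.

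**Figure D5:**
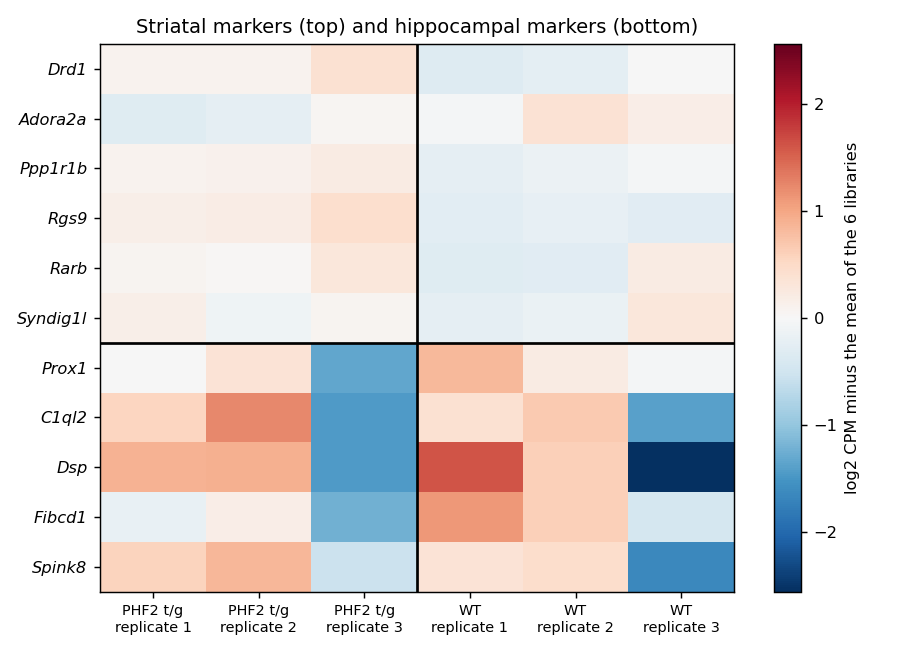
Log2 CPM of each gene in each library minus its mean over the 6 libraries (colour), for the 6 tested striatal markers above the line and 5 hippocampal markers below it, with PHF2 t/g left of WT. These 5, chosen among 8 of 11 tested hippocampal genes with that pattern, are lowest in replicate 3 of both groups, and Drd1 and Ppp1r1b are highest there within each group.

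Markers of other regions were set beside the genotype. Of 12 hypothalamic genes 5 were tested and 4 rose by edgeR, Avp, Oxt, Trh and Irs4, none of which has a DESeq2 adjusted p; Trh and Irs4 did not pass without PHF2 t/g replicate 1 (edgeR adjusted p = 0.0753 and 0.149). The summed level was 56.0 to 59.1 CPM in PHF2 t/g, against 6.09 to 6.66 CPM in WT. In PHF2 t/g most of it was Avp and Oxt. Avp stood at 27.3 ± 0.853 CPM in PHF2 t/g, against 0.284 ± 0.250 CPM in WT, and Oxt at 16.0 ± 1.86 CPM, against 0.129 ± 0.119 CPM (SD, n = 3). Otp had 0 counts in every library and Agrp and Sim1 at most 3. Pomc, the other tested gene, had 0.852 to 2.66 CPM in PHF2 t/g, against 1.36 to 2.23 CPM in WT (edgeR adjusted p = 0.960). The choroid plexus list summed to 568, 163 and 160 CPM in PHF2 t/g replicates 1 to 3, against 142 to 158 CPM in WT. In PHF2 t/g replicate 1 Ttr held 292 CPM and Enpp2 237 CPM. Enpp2 was most of the sum elsewhere, at 149 and 145 CPM in PHF2 t/g replicates 2 and 3, against 132 to 147 CPM in WT. Of the 4 tested genes of this list 0 passed edgeR, DESeq2 or limma-voom and 2 were higher at an unadjusted p under 0.05. Of these Clic6, a chloride channel gene, had the smallest p, at 10.1 ± 5.24 CPM in PHF2 t/g, against 2.87 ± 0.774 CPM in WT (SD, n = 3; edgeR adjusted p = 0.0614), and it passed in 4 alternatives. Markers of striatal cholinergic neurons, 4 of 7 tested, summed to 13.1 to 14.5 CPM in PHF2 t/g, against 7.99 to 13.0 CPM in WT, with 0 past each of the 3 tools or an unadjusted p under 0.05; the smallest p was that of the choline transporter gene Slc5a7 (edgeR adjusted p = 0.360). Of 7 thalamic and 5 septal genes tested 0 passed any of the 3 tools. At an unadjusted p under 0.05, 1 thalamic and 1 septal gene were higher and 2 thalamic genes lower. DESeq2 gave no adjusted p to septal Zic2, nor to Slc5a7 and Clic6, so it could not call them. Thalamic Ramp3 stood at 35.5 ± 1.25 CPM in PHF2 t/g, against 46.9 ± 3.55 CPM in WT, and septal Zic2 at 17.0 ± 1.57 CPM in PHF2 t/g, against 11.4 ± 2.07 CPM in WT (SD, n = 3; edgeR adjusted p = 0.0561 and 0.0762). The part of the cells these markers stand for in the values of Rgs9, Drd1, Ppp1r1b and Adora2a was not tested, nor in those of Pdyn, Tac1, Penk and Six3.

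By Pearson correlation of log2 CPM over the 6 libraries, the genes most like a member among 9228 were Mms19 and Asgr1 for Rgs9 (0.991 and 0.988), Usp25 and Abhd17b for Drd1 (0.991 and 0.987), and Myh14 and Flrt2 for Adora2a (0.995 and 0.989). For Ppp1r1b they were Pramef8 and Arel1 (0.994 and 0.993), for Rarb Jade1 and Hic2 (0.979 and 0.976), and for Syndig1l Cnot6 and Gpr61 (0.995 and 0.972). With 6 points that share 2 genotypes and the scaling, among so many genes, these are descriptions.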

How the data were processed

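Messenger RNA of labelled hippocampus was read as 3′ end tags (QuantSeq kit, per the labels' protocols) in 6 libraries. Bowtie2, edgeR and the build mm10 are named in the submitters' processing notes; their versions, the counter, and whether it used strand or a filter, are stated in no label. The deposited values are raw counts per gene symbol, with 23282 rows per library and no normalization. Groups and replicate numbers come from the sample titles.

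Genes were filtered with filterByExpr, scaled by TMM and tested with edgeR 4.0.16 in R 4.3.3 (robust quasi-likelihood test, genotype as the only term), p-values being adjusted by Benjamini-Hochberg over the 12831 genes kept and called under 0.05. The procedure was tested on simulated data. Levels are CPM on TMM-scaled totals. Count ratios within a library were compared by exact two-sided permutation in SciPy 1.17.1. Alternatives were DESeq2 1.42.0, limma-voom (limma 3.58.1), other scalings and filters, a fit that was not robust, a replicate block, the removal of 3 very abundant rows, and libraries left out. The removal of both replicate 3 libraries was chosen after seeing the data.

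The members and all lists were chosen with earlier results of these data known. The lists were other striatal genes, the cAMP and phosphatase pathway around Ppp1r1b, dopamine and adenosine genes, R7 RGS genes, Gpr6 relatives, retinoid genes, Syndig1l relatives, and markers of cholinergic neurons, hippocampus, choroid plexus, hypothalamus, thalamus and septum. One gene of the first list is not reported here. The rule named all members and, in each list, up to 4 genes past the threshold or else the one with the smallest p, with values given where a result turns on them. Lrrc10b, Foxp1, Foxp2, Pde10a, Adcy5, Gnal, Gng7, Ptpn5, Chrm4 and the individual hippocampal, dopamine and choroid plexus genes outside this rule were picked with their values in view. Coordinates and promoters come from RefSeq on GRCm38.p6, the assembly that mm10 names; 5 of 8 members matched a promoter entry. Intervals from fits cover the spread between libraries, and a floor of 3 counts covers only counting error.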

Additional observations from a re-analysis of the deposited data

How the results depend on the processing

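The count of members past the threshold, 1 in the fit reported, was 3 with library size alone (Drd1, Ppp1r1b and Rgs9), 3 without the low-count filter (Drd1 and Rgs9 higher, Adora2a lower), 2 with DESeq2 (Drd1 and Rgs9), 0 with limma-voom, 0 without the robust fit, 0 without both replicate 3 libraries, and 0 to 1 with 1 library left out; without WT replicate 3 the 1 called was Drd1. For the other striatal genes it was 6, and 3 to 8 with 1 library left out. Over all tested genes it was 291, against 162 with limma-voom, 606 without the filter, 149 without the robust fit, 56 without both replicate 3 libraries, 140 without both PHF2 t/g replicate 1 and WT replicate 2, and 49 to 392 with 1 library left out. DESeq2 gave an adjusted p for 6234 genes and could call only those, with 50 of its calls higher and 220 lower. Of 566 gene values under alternatives, 496 kept direction and side of the threshold, 41 lost and 23 gained a call, and 6 turned sign: Syndig1l ranged from −0.04 to 0.23 with 1 library left out and was −0.085 without both PHF2 t/g replicate 1 and WT replicate 2, where Prrt2 was −0.11, and Prrt2 was −0.15 to 0.31 with 1 left out. The causes were not tested. With the replicate number as a block the members past the threshold were 2 (Drd1, edgeR adjusted p = 0.0179, and Rgs9) and all genes 299; same-numbered libraries correlated at −0.00445, 0.123 and 0.0846, not all above 0.1, so the numbers were not taken to pair them. As a hint from the data, 4 of 6 libraries correlated best with their own number. Drd2 and Gpr6 cannot be compared between groups at these counts, and why their counts were low was not tested.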
